A study of Homo sapiens with 11 samples.

Results

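Small interfering RNAs (siRNAs) of different design against the same transcript were set against each other in 769-P cells, an established human line from a clear-cell renal carcinoma. The samples were the 3 RNA-seq libraries of a first siRNA against AKR1A1 (si1) and the 4 libraries of a second one (si2), chosen by their labels, which makes 7 of the 11 libraries of the series. The other 4 libraries received a scrambled control siRNA (siSCR). They stayed out of every fit here and are given beside the results as the reference level. All cells were grown in DMEM in 6-well plates and transfected for 48 h with RNAiMAX, optimem and an siRNA labelled at 20 µM, so every group, the control included, carries a transfected siRNA. The genotype label reads wild-type for siSCR and AKR1A1-/- for both AKR1A1 siRNAs, although the treatment described is a transient knockdown. The labels do not say whether libraries of a group came from separate cultures, so the p-values measure the spread between these libraries, which may be technical.

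AKR1A1 is an NADPH-dependent aldehyde reductase of the aldo-keto reductase superfamily that reduces a broad range of aldehydes, D-glucuronate among them. An siRNA works by loading 1 of its strands into an Argonaute protein, which then cuts a transcript that pairs with the whole strand. Argonaute can also lower other transcripts whose 3′ UTR pairs with a short stretch near the start of the loaded strand, the seed, in the way that microRNAs do. A comparison of siRNAs that share a target therefore describes the transcripts that differ between them. The target, which they are designed to change in common, and other transcripts that both change alike do not stand out in it.

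No source used here gives the siRNA sequences. 3′ UTRs were searched for all words of 7 bases (7-mers), on the sense strand of the longest annotated 3′ UTR of each gene (GENCODE 29, GRCh38), and the word whose holders were highest in si2, TGAGATA, was picked on genes of even-numbered chromosomes. Of the 15 genes with the largest called excess in si2, 8 held it, as did 12.8% of all genes with a 3′ UTR. EML4, COMMD8 and CLMN among the 8 are on chromosomes used to pick the word, so the count is a description. Their first match is shown with 10 bases on either side because this word is the one examined further against the differences. Capitals mark the 7-mer.
DEPDC1: gtgcaagttcTGAGATAttagctaatg
EML4: gtactcttacTGAGATAccctctcacc
COMMD8: tattcaaataTGAGATAagactatgta
TFRC: cttttggcacTGAGATAtttattgttt
GCLM: ctgtcattgaTGAGATAtatcagagta
FBXL17: agtctatttcTGAGATAcgagagggta
CLMN: ttgattggatTGAGATAgaaccatgat
CNN2: acctgctccgTGAGATAatgtgaaata
The DEPDC1 site lies at chr1:68476554-68476580, the GCLM site at chr1:93888510-93888536, the COMMD8 site at chr4:47450907-47450933 and the TFRC site at chr3:196051058-196051084, all on the minus strand. The FBXL17 site at chr5:107860769-107860795 and the CLMN site at chr14:95190829-95190855 are on the minus strand as well, whereas EML4 (chr2:42330661-42330687) and CNN2 (chr19:1038996-1039022) are read from the plus strand. The corresponding word for genes lower in si2 was CAGTTAC, and among the 15 genes with the largest called excess in si1 it was present in RYBP alone, whose first site lies on the minus strand at chr3:72377797-72377823.
RYBP: caacattgaaCAGTTACagatctggga

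AKR1A1 was below the control with both siRNAs and did not differ between them by the test. The gene spans chr1:45550543-45570049 on the plus strand. Its normalized counts were 81.7, 23.6 and 45.1 in the si1 libraries and 56.6, 32.1, 48.3 and 46.1 in the si2 libraries. The si2 values fell inside the range of the si1 values, and all 7 libraries lay below the 4 control libraries, which held 200.1 to 390.4. The log2 difference, si2 minus si1, was 0.01 (SE 0.39; 95% interval -0.89 to 0.92; limma adjusted p = 0.988), and an exact permutation test over the 35 possible splits gave p = 0.971, two-sided. The interval still allows a difference of almost 1 log2 unit in either direction, and leaving out si1 replicate 2 or si1 replicate 1 moved the estimate to -0.43 or to 0.45. With the mitochondrial share of reads as a covariate, an alternative added after the data were seen, it was 1.27 (SE 0.44; limma adjusted p = 0.137), outside that interval. No AKR1A1 transcript searched held either of the 7-mers. The search covered only protein-coding transcripts of the basic GENCODE set with a complete annotated end.

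The number of reads on genes ranged from 2108546 to 3880155 in si1 and from 2958944 to 5939514 in si2. Of the 33080 genes in each table, 16818 had a read in some library of either siRNA, and 10448 passed the filter of at least 10 normalized counts in 3 or more of the 7 libraries. The libraries of si1 were less alike than those of si2, with pairwise correlations of log2 levels of 0.879 to 0.952 against 0.956 to 0.977. In si1 replicate 2, 11609 genes were detected when every library was thinned to the depth of the shallowest, against 13163 to 13482 in the other 6. The share of mitochondrially encoded reads was 11.1%, 6.57% and 7.82% in si1 and 4.59% to 5.12% in si2. The groups did not overlap in this share, which differed by -3.59 percentage points (si2 minus si1; exact permutation p = 0.0571, the smallest that 35 splits allow). Within the control, siSCR replicate 1 had 12.1% against 3.46% to 4.46%, and correlated more with si1 replicate 1 (0.958) and with si2 replicates 1, 2 and 4 (0.950 to 0.953) than with the other control libraries (0.926 to 0.938). Of the renal markers, PAX8 (711 to 1063 normalized counts in the 7 libraries) and CDH6 were abundant. HNF4A, EMX2, SLC5A2, SLC22A6 and PROM1 were at 0 in every library and LRP2, an endocytic receptor of the proximal tubule, did not exceed 2.10. The summed level of 10 endothelial markers was 0 in si1 and at most 0.518 in si2, with PECAM1, VWF and CDH5 at 0. Of 10 fibroblast markers the sum was 14.1 to 30.5 in si1 and 42.0 to 64.6 in si2, mostly COL1A1, with COL1A2, LUM and POSTN at 0. Of 10 leukocyte markers the sum was 33.1 to 87.8 in si1 and 37.8 to 89.3 in si2, with CD3D and CD3E at 0. CD68 made up 95.6% of it over all libraries. The exons of CD68 share 81.7% of their bases with another gene, and the reads of overlapping genes cannot be told apart here.

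Between the siRNAs, 704 of 10448 genes (6.74%) were called by limma at an adjusted p under 0.05. Of these, 388 (3.71% of the genes tested) were higher in si2 and 316 (3.02%) were higher in si1. The median log2 difference over all genes was 0.03, and 508 of the called genes differed by 2-fold or more, 291 of them higher in si2. In all 704 the libraries of the siRNAs did not overlap, which over all genes tested was so for 1395 (13.4%) with si2 above and 1214 (11.6%) with si2 below. An unadjusted p under 0.05 was reached by 2654 genes. The count depended on which libraries were used: it was 803 without si1 replicate 2, 419 without si1 replicate 3, 189 without si2 replicate 1, 142 without si2 replicate 2, 398 without si2 replicate 3 and 120 without si2 replicate 4. It was 167 (124 higher in si2 and 43 lower) with the mitochondrial share as a covariate. Of 104 genes named by a rule, 85 were called, and 32 kept their call whichever library was left out.

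**Figure D1:**
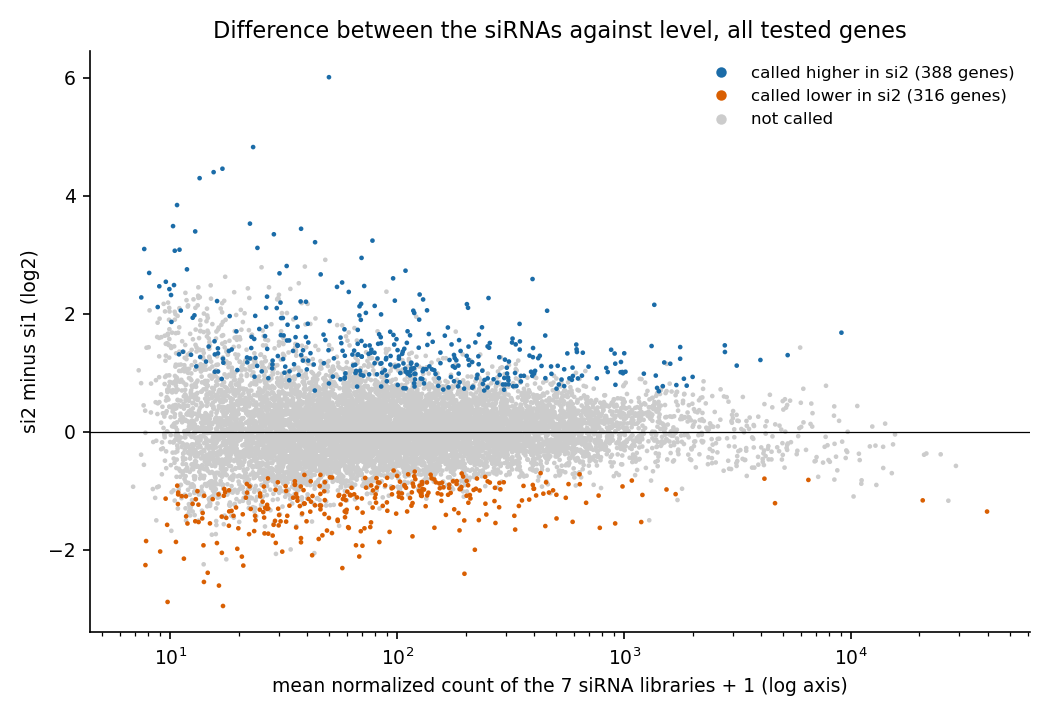
Each point is 1 of 10448 tested genes, with the mean normalized count + 1 of the 7 siRNA libraries on a log axis and the log2 difference, si2 minus si1, on the vertical axis. The 388 genes called higher in si2 (blue) and the 316 called lower (orange) are spread over the whole range of levels, and differences above 3 are found below a mean count of 100.

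Among the transcripts higher in si2, the largest differences of well-expressed genes were in a cell cycle gene, a hormone, a microtubule protein and receptors. DEPDC1, which is expressed in dividing cells, had normalized counts of 4.39, 18 and 21 in si1 and 115, 123, 134 and 121 in si2. Every si2 library was thus above every si1 library, by 3.24 on the log2 scale (SE 0.45; limma adjusted p = 0.00967). The control held 58.8 in siSCR replicate 1 and 204 to 216 in its other libraries. Every si1 library lay below the control, and si2 lay between siSCR replicate 1 and the other control libraries. EML4, a microtubule-binding protein, was also lower in si1 than in the control, which overlapped si2. It had 36.9, 13.9 and 27.1 in si1, 138 to 228 in si2 and 107 to 178 in siSCR (difference 2.73, SE 0.33, limma adjusted p = 0.00726). TFRC, the receptor that takes up transferrin-bound iron, had counts of 99.2, 122 and 76.6 in si1 and 495, 489.6, 916 and 555 in si2 (difference 2.59, SE 0.28; limma adjusted p = 0.00556). Here the control, at 74.3 to 289, overlapped si1, and it was si2 that stood above both. CRH, the corticotropin-releasing hormone, was at 7.51 to 15.3 in si1 and at 221, 107, 72.5 and 44.6 in si2 (difference 2.95; limma adjusted p = 0.0180). The control libraries held 0 to 7.56 counts of it, and the call was lost without si1 replicate 3 or si2 replicate 2.

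**Figure D2:**
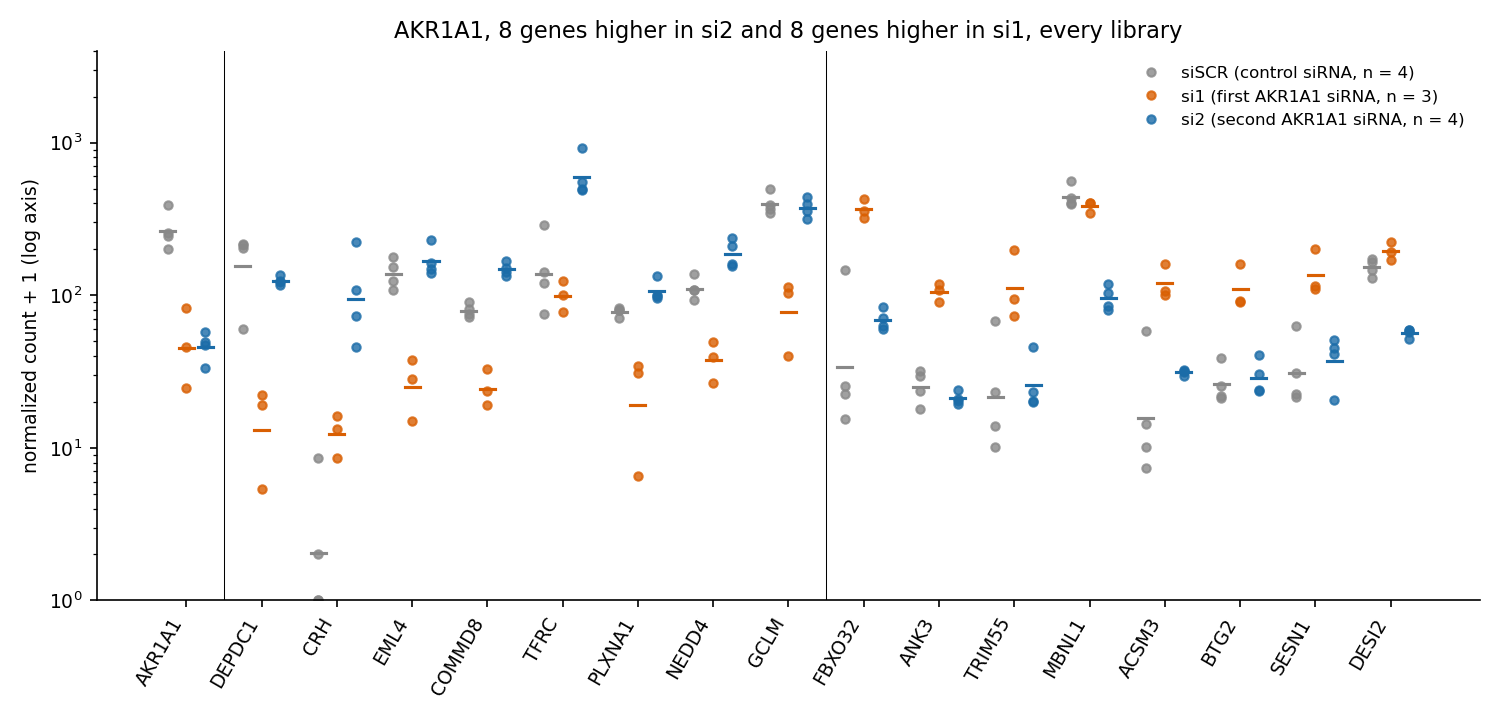
Normalized count + 1 (log axis) of AKR1A1, of 8 genes higher in si2 and of 8 genes higher in si1, with 1 point per library and a short line at the mean of the log values of a group. AKR1A1 overlaps between the siRNAs, whereas in each of the other 16 genes every si2 library lies on 1 side of every si1 library. The control lies with si2 for genes such as EML4 and ANK3 and with si1 for MBNL1. For DEPDC1 it lies on both sides of si2 and above si1.

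COMMD8, a subunit of the endosomal COMMD complex, had 31.6, 18 and 22.5 counts in si1 and 134 to 165 in si2 (difference 2.60, SE 0.22; limma adjusted p = 0.00304). NEDD4, a ubiquitin ligase of membrane proteins, had 25.5 to 48.6 in si1 and 155 to 235 in si2 (difference 2.33, SE 0.27; limma adjusted p = 0.00687). BECN1, a core component of the autophagy kinase complex, had 58.3 to 84.2 in si1, 285 to 341 in si2 and 292 to 383 in siSCR (difference 2.10, SE 0.19; limma adjusted p = 0.00409). These 3 genes kept their call without any 1 library, as did NIPSNAP2 (2.24), an autophagy-linked mitochondrial protein, and CNN2 (2.15), an actin-binding calponin. BRI3BP (2.16), whose exons share 29.7% of their bases with a neighbouring gene, kept its call in the same way. PLXNA1 (2.47), a semaphorin receptor, GCLM (2.27), a regulatory subunit in glutathione synthesis, FBXL17 (2.22), CLMN (2.17) and KCTD9 (2.13) were called with all libraries and lost the call in 3 to 5 of the 7 fits that each left 1 library out. ERLIN1, which helps to degrade membrane proteins of the endoplasmic reticulum, had the greatest difference of any gene named here. It was at 5.27, 1.39 and 10.5 in si1, 50.4 to 68.3 in si2 and 57.9 to 128 in siSCR (difference 3.44, SE 0.46; limma adjusted p = 0.00956).

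The genes higher in si1 included muscle-type ubiquitin ligases, a splicing regulator and genes that restrain proliferation. FBXO32, the F-box subunit of a ubiquitin ligase known from muscle atrophy, had 429, 354 and 320.1 counts in si1 and 83.1, 59.4, 62.0 and 69.5 in si2. Every si2 library was lower than every si1 library (difference -2.41, SE 0.20; limma adjusted p = 0.00304), with 14.4 to 146 in the control. ANK3, the membrane adaptor ankyrin-G, had 118, 88.8 and 107 in si1 and 18.5 to 23.0 in si2, where the control had 17 to 31.1 (difference -2.31, SE 0.18; limma adjusted p = 0.00304). For ANK3 si2 overlapped the control. For FBXO32 si2 lay below siSCR replicate 1, at 146, and above the other control libraries, at 14.4 to 24.6. In both genes si1 lay above every control library. MBNL1, a regulator of alternative splicing, differed in this respect. It had 347, 402 and 398 counts in si1, near the 392 to 557 of the control, and 79.6, 83.5, 117 and 103 in si2 (difference -2.0, SE 0.20; limma adjusted p = 0.00409). DESI2, a thioesterase and deSUMOylating protein, was also lower in si2 than in both other groups, with 169 to 223 in si1, 129 to 173 in the control, which overlapped si1, and 50.4 to 58.6 in si2 (difference -1.77, SE 0.18; limma adjusted p = 0.00409).

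HMGA2, a chromatin architectural protein of embryonic and tumour cells, had 1143 to 1472 counts in si1 and 365 to 440.0 in si2 (difference -1.63, SE 0.18; limma adjusted p = 0.00576). THSD4 (-1.63), a microfibril-associated matrix protein, and ACSM3 (-1.93), a mitochondrial medium-chain acyl-CoA synthetase, likewise kept their call in all 7 fits that left a library out. TRIM55 (-2.12), a muscle RING-finger ubiquitin ligase, ABCA12 (-1.67), a lipid transporter, RPS19BP1 (-1.70), a nucleolar partner of a ribosomal protein, and TAB3 (-1.64), an adaptor of the TAK1 kinase, were called with all libraries and lost the call in 1 to 4 of these fits. ABCA12 was the one of these in which both siRNAs lay above the control, with 226 to 456 in si1, 82.7 to 102 in si2 and 28.8 to 65.5 in siSCR.

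The control took no part in the test, so its position says on which side a called gene lay away from it. Of the 388 genes called higher in si2, the control mean was nearer to si2 in 309 (79.6%), and of the 316 called lower in si2 it was nearer to si2 in 223 (70.6%). Over all genes tested it was nearer to si2 in 64.3%. In the genes called higher in si2, the median log2 level relative to the control was -1.03 in si1 and 0.21 in si2. In those called lower it was 0.91 in si1 and -0.25 in si2. Without siSCR replicate 1 the shares were 79.1% and 73.7%, against 64.7% over all genes. The groups differ in size and in spread, and the part of the larger spread of si1 in these shares was not tested.

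**Figure D3:**
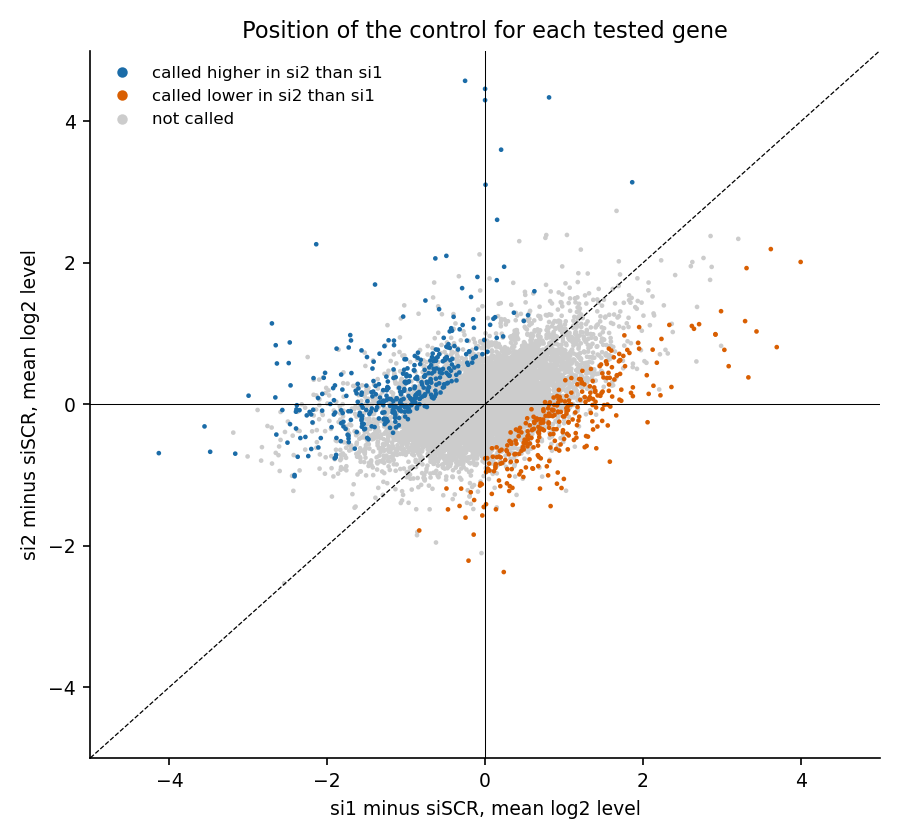
For each tested gene, the mean log2 level of si1 minus that of siSCR (horizontal axis) is plotted against the same difference for si2 (vertical axis), with 2 genes outside the axes. On the dashed diagonal the siRNAs are equal; genes called higher in si2 (blue) lie mostly to the left of 0 and close to the horizontal line, with medians of -1.03 and 0.21, and genes called lower (orange) mostly to the right, with medians of 0.91 and -0.25.

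In the authors' deposited tables, which test each siRNA against the same 4 control libraries, 1050 of 16600 genes (6.33%) passed an adjusted p of 0.05 for si1 and 617 of 17211 (3.58%) for si2. Genes with opposite signs in the authors' deposited tables were named by a rule, and all 6 were called here. The choice fixed this in large part, since the deposited tables use the same libraries and share the control. WT1, a transcription factor of kidney development, had 9.66, 4.16 and 6.01 counts in si1 and 37.7 to 51.8 in si2, with the control between them at 17 to 32.6 (difference 2.69, SE 0.27; limma adjusted p = 0.00409). CACUL1, a cullin-related protein that promotes entry into S phase, had 136 to 199 in si1, 365 to 443 in siSCR and 564 to 751 in si2 (difference 2.05, SE 0.20; limma adjusted p = 0.00409). L1CAM, a cell adhesion molecule of neurons and of renal tubule cells, had 8.33 to 22.5 in si1, 42.7 to 67.2 in siSCR and 84.0 to 88.3 in si2 (difference 2.53, SE 0.29; limma adjusted p = 0.00699). None of the 3 groups overlapped in any of these genes. For COMMD8 the authors' deposited table gave a log2 fold change of -1.46 for si1 (adjusted p = 9.67e-05) and of 0.84 for si2 (adjusted p = 0.000134). RYBP, a subunit of a Polycomb repressive complex, was the gene of this kind that was higher in si1. It had 516 to 579 counts in si1, 270.3 to 332 in siSCR and 135 to 192 in si2 (difference -1.66, SE 0.19; limma adjusted p = 0.00658).

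For genes that the deposited tables list as changed in the same direction by both siRNAs, the question is how far the siRNAs differed in size. Of the 11 named besides AKR1A1, ranked by whichever fold change was the smaller, 0 were called between the siRNAs by limma. This ranking favours genes changed alike by both siRNAs, so the choice fixed the lack of calls in part. Genes changed in the same direction that were called do exist: ABCA12, OSTM1, ITGB8 and PRR11, named for other reasons, differed by -1.67, -0.86, 1.28 and 1.63. INSIG1, which retains the sterol sensor of the cell in the endoplasmic reticulum, had 249, 337 and 286 counts in si1 and 239, 269.6, 359 and 287 in si2, with 72.2 to 111 in the control. Its difference was -0.01 with an interval of -0.49 to 0.46 (limma adjusted p = 0.974), so a difference of more than about 0.49 log2 units in either direction lay outside the interval. HMGCS1, which makes the precursor of mevalonate, had a difference of 0.19 (interval -0.26 to 0.65), and MSMO1, a sterol demethylating enzyme, of -0.28 (interval -0.71 to 0.14). KCNIP1 (0.13, interval -0.77 to 1.02) and CARNMT1 (-0.02, interval -0.48 to 0.44) were likewise at near-equal means, with wider limits for KCNIP1. ANKRD1, a target of the YAP coactivator, was at 93.1 to 129 in si1 and 60.9 to 82.3 in si2 against 7.85 to 22.4 in the control. Its groups did not overlap, yet the difference of -0.61 (interval -1.07 to -0.16) did not pass (limma adjusted p = 0.101).

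On the lowered side, TOP2A, the topoisomerase of dividing cells, had 1191, 1596 and 2460.0 counts in si1 and 2319 to 2567 in si2, with 2358 to 7565 in the control (difference 0.53, interval -0.04 to 1.11; limma adjusted p = 0.227). HMGB2, a chromatin protein of proliferating cells, had 48.3, 114 and 143 in si1 and 108 to 130.0 in si2, a difference of 0.41 (interval -0.38 to 1.20) that turned to -0.05 without si1 replicate 1. CETN3 (0.50, interval -0.29 to 1.30), CA12 (-0.33, interval -0.82 to 0.17) and PHF5A (-0.24, interval -0.68 to 0.20) did not pass either. The intervals of these genes allow differences from about 0.5 to 1.3 log2 units, so equal levels were not shown.

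Most genes of S phase and mitosis had higher values in si2 and most p53 targets had higher values in si1, with a smaller number of each passing the test. Among the 42 S phase genes, all tested, 13 were higher in si2 and 1, UNG, was lower (background 3.71% and 3.02%). The median difference was 0.85, against 0.03 over all genes tested, and 39 of the 42 had positive values. CHAF1B, a subunit of the factor that assembles chromatin behind the replication fork, had 5.27, 6.94 and 9.02 counts in si1 and 27.4 to 58.8 in si2 (difference 2.29, SE 0.30; limma adjusted p = 0.00949). The clamp loader subunit RFC3 (1.41), the helicase subunits MCM4 (1.19) and MCM2 (0.98), the transcription factor E2F1 (1.31) and the ribonucleotide reductase subunit RRM2 (1.51) were also higher. So were CCNE2 (1.93), the cyclin of entry into S phase, whose exons share 37.0% of their bases with a neighbouring gene, GINS3 (1.97) and UHRF1 (1.86). UNG, which removes uracil from DNA, had 149 ± 4.11 counts with si1 (SD, n = 3) against 77.6 ± 14.2 with si2 (SD, n = 4).

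All 40 mitosis genes had positive differences (0.51 to 3.24, median 0.98). The test was passed by 5 of them (background 3.71% higher in si2 and 3.02% lower). Beside DEPDC1 these were PRR11, a cell cycle gene, with 156, 279 and 188 counts in si1 and 585 to 679 in si2 (difference 1.63, SE 0.22; limma adjusted p = 0.00959), the kinetochore subunit SPC25 (1.56), the spindle checkpoint kinase BUB1B (1.28) and ECT2 (1.18), which drives cytokinesis. Of 30 p53 targets, 8 were higher in si1 and 0 in si2, with a median of -0.75 and 28 negative values. CDKN1A, the inhibitor of cyclin-dependent kinases known as p21, had a mean of 6879.8 ± 1909.6 counts with si1 (SD, n = 3) against 2920.4 ± 407 with si2 (SD, n = 4) (difference -1.21, SE 0.23; limma adjusted p = 0.0225). MDM2, the ligase that degrades p53, differed by -1.08, the proapoptotic PMAIP1 by -1.69, the antiproliferative BTG2 by -1.93 and the stress protein SESN1 by -1.87. The death receptor FAS (-1.40) was at 60.6 to 83.3 in si1 and 23.1 to 32.1 in si2, and here it was si1 that overlapped the control, at 49.1 to 65.2. RRM2B (-1.28) and FDXR (-0.98) completed the 8.

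These lists moved with the mitochondrial share and with single libraries. The S phase score, averaged over the members' log2 levels after centring each over all 11 libraries, was -1.18 in si1 replicate 1, -0.62 and -0.57 in the other si1 libraries and 0.03 to 0.16 in si2. The mitosis score was -1.91, -0.52 and -0.39 in si1 and 0.05 to 0.10 in si2, and the p53 score was 0.67, 0.58 and 0.57 against -0.16 to -0.12. The groups did not overlap in any of the 3 scores. This was not particular to these lists. Scores of cytosolic ribosomal proteins, interferon-stimulated genes, endoplasmic reticulum chaperones and heat shock chaperones did not overlap either. The same held for aldo-keto reductases and aldehyde oxidation, the NF-kB response, and the TGF-beta response and matrix. It also held for MYC targets and ribosome biogenesis, integrins and ephrin receptors, and the fibroblast list, of which COL1A1 alone was tested. Scores of other lists, such as cholesterol synthesis, did overlap. The lowest library in both cell cycle scores was si1 replicate 1, which had the largest mitochondrial share of the 7. Without it the medians were 0.58 for S phase (7 genes higher), 0.52 for mitosis (3 higher) and -0.69 for p53 targets (7 lower in si2). Once the mitochondrial share entered the fit, the medians were 0.44 (2 higher), -0.10 (0 higher) and -0.52 (1 lower), so the direction of the mitosis median turned. Without replicate 1 of both siRNAs they were 0.67 (0 higher), 0.52 (1 higher) and -0.66 (0 lower). When any other 1 library was left out, the S phase list had 2 to 16 genes higher in si2, with the lowest count without si2 replicate 1, the mitosis list 2 to 8 and the p53 list 2 to 12 lower, with the lowest count without si2 replicate 4. In siSCR replicate 1 the scores were -0.42, -0.73 and 0.37, against 0.81 to 0.82, 1.05 to 1.10 and -0.57 to -0.52 in the other control libraries. The part of the mitochondrial share in these differences was not tested.

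**Figure D4:**
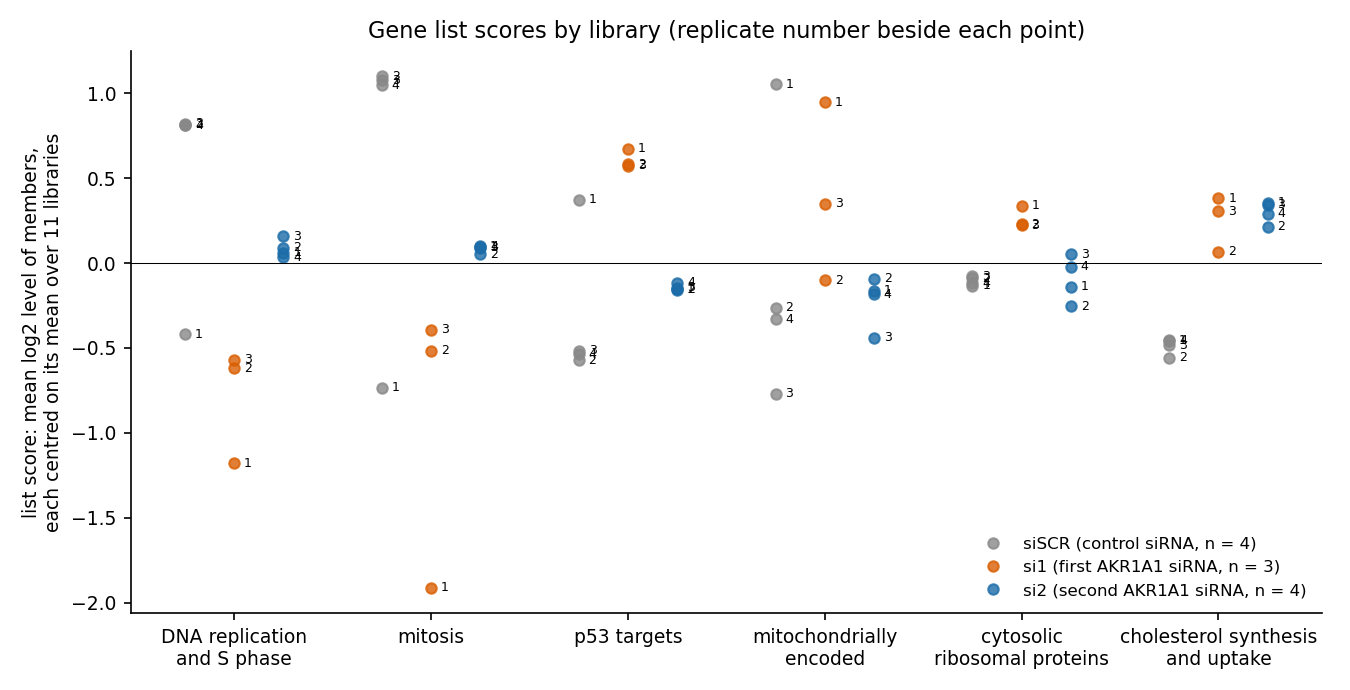
Scores of 6 gene lists (vertical axis, average of the members' log2 levels after centring each over 11 libraries) for every library, with the replicate number beside each point. The si2 libraries lie above all si1 libraries for S phase and mitosis and below them for p53 targets, si1 replicate 1 is the lowest for mitosis at -1.91, and both siRNAs overlap for cholesterol synthesis, above the control.

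All but 1 of the 13 mitochondrially encoded genes had negative differences, with a median of -0.58. Of these, 2 were called lower in si2 (background 3.71% higher and 3.02% lower). MT-CO3, a subunit of cytochrome c oxidase, had 81456, 47121 and 55611 counts in si1 and 21973 to 26133 in si2 (difference -1.35, SE 0.22; limma adjusted p = 0.0169), and MT-ATP6, of the ATP synthase, differed by -1.16. Both calls were absent without si2 replicate 1, 2 or 4. Of the 7 fits that each left 1 library out, the MT-CO3 call remained in 4 and the MT-ATP6 call in 1. Of the 31 nuclear genes of the respiratory chain 0 passed, with a median of -0.10; the abundant UQCRB and COX4I1 differed by -0.10 and -0.09. Cytosolic ribosomal proteins had 0 of 39 called and a median of -0.37, with 37 negative values. RPL27A had 13454 to 20869 counts in si2, inside the 15946 to 33617 of si1 (difference -0.39, interval -1.04 to 0.26), and RPS27A differed by -0.05. Near-identical copies of such genes make the assignment of reads uncertain.

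Genes of sterol synthesis were not called between the siRNAs, while single genes of redox and lipid metabolism were. Of 26 genes of cholesterol synthesis and uptake, 0 were called in either direction, with a median of -0.00 and a range of -0.82 to 1.25. The list's scores were 0.38, 0.07 and 0.31 in si1 and 0.21 to 0.35 in si2, with -0.56 to -0.45 in the control, so the siRNAs overlapped and both lay above the control. SQLE, which makes squalene epoxide, had 601 to 770.2 in si1 and 502 to 525 in si2 (difference -0.40, interval -0.79 to -0.02; limma adjusted p = 0.175). In fatty acid synthesis and storage 3 of 20 genes were higher in si2 and 1 was lower, against 3.71% and 3.02% of all genes tested. GPAM, the first enzyme of glycerolipid synthesis, had 6.15, 13.9 and 6.01 counts in si1 and 34.2 to 41.7 in si2 (difference 2.10, SE 0.28; limma adjusted p = 0.00956). SCD (1.10), which makes monounsaturated fatty acids, and the acyl-CoA synthetase ACSL3 (0.88) were higher in si2, whereas ACSL4 (-1.41), which activates arachidonate, was at 220.4 to 284 in si1 and 80.5 to 119 in si2.

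Aldehyde and redox enzymes are the group closest to the chemistry of AKR1A1. Of 18 tested aldo-keto reductases and aldehyde-oxidizing enzymes, 0 were higher and 2 were lower in si2, with a median of -0.06. ALDH1A1, which oxidizes retinaldehyde, had 233, 533 and 338 counts in si1 and 108 to 128 in si2 (difference -1.50, SE 0.28; limma adjusted p = 0.0220), and AKR1C1, a relative of AKR1A1 that acts on steroids, differed by -1.16 (limma adjusted p = 0.0459). These calls were lost in 4 and 6 of the 7 fits without a library, and reads of AKR1C1 may be shared with its close paralogs. Of 27 NRF2 targets and glutathione genes 4 were higher and 2 lower in si2 (background 3.71% and 3.02%), with a median of -0.14. PIR (1.88), an iron-binding nuclear protein, SLC7A11 (1.46), the cystine transporter, and TKT (1.33), of the pentose phosphate pathway, were higher beside GCLM. PIR kept its call without any 1 library, with 13.9 to 24.0 in si1 and 57.5, 61.0, 105 and 65.3 in si2. Of 29 HIF targets and glycolysis genes, NDRG1 (1.65) was higher and PFKFB4 (-1.10) and HK1 (-0.79) were lower, with a median of 0.05. HK1 passed in 0 of the 7 fits without a library.

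For the stress and interferon lists the background was again 3.71% higher and 3.02% lower. Of 24 genes of endoplasmic reticulum chaperones, CALR (1.35), the chaperone calreticulin, was higher in si2 beside ERLIN1 and 0 were lower (median 0.34). Of 25 ATF4 response genes WARS1 (0.77) alone was called (median 0.13), and it passed in 0 of the 7 fits without a library. Of 21 heat shock chaperones CRYAB (-1.32), a small heat shock protein whose exons share 20.6% of their bases with a neighbouring gene, was lower (median 0.36). Of 24 interferon-stimulated genes 4 were higher and 0 lower in si2, with a median of 0.28. OAS3, a sensor of double-stranded RNA, had 11.4, 13.9 and 28.6 counts in si1, 71.4 to 116 in si2 and 51.2 to 129.5 in siSCR (difference 2.37, SE 0.32; limma adjusted p = 0.00959). The control thus overlapped si2 and lay above si1. USP18 (2.42), at 0 to 3.51 in si1, and PARP14 (0.88) were called too, and without any 1 library 1 to 3 genes of the list were called, with 1 without si1 replicate 3 or si2 replicate 1, 2 or 4.

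Of 26 genes of the TGF-beta response and matrix, 4 were higher and 1 lower in si2 (median 0.26; background 3.71% and 3.02%), and without si2 replicate 4 none was called. PMEPA1, a feedback inhibitor of TGF-beta signalling, had 1943 to 2661 counts in si1, 4785 to 5707 in si2 and 3759.5 to 4441 in siSCR (difference 1.22, SE 0.18; limma adjusted p = 0.0127). The matrix genes COL1A1 (1.38) and TIMP3 (2.49) were higher at low counts. Of 25 YAP and TEAD targets (median 0.14), the growth factor AREG (1.47) and the coactivator WWTR1 (0.74) were higher, and FJX1 (-1.22) and CCN2 (-1.13) were lower. WWTR1 passed in 0 of the 7 fits without a library. AREG had 1282 to 1493 counts in si1, 2717 to 5078 in si2 and 3362 to 5394 in siSCR. Of 22 genes of epithelial junctions, CLDN1 (1.51), a tight junction claudin, was at 126, 148 and 195 in si1 and 431 to 459 in si2. F11R (1.13), whose exons share 36.6% of their bases with another gene, was higher as well. CGN, the junction protein cingulin, went the other way, at 15.8, 20.8 and 16.5 in si1, 0 to 3.63 in si2 and 0 to 1.31 in siSCR (limma adjusted p = 0.0196). Of 13 NF-kB response genes VCAM1 (1.90) alone was called (median 0.22). Of 15 renal lineage genes VCAM1 and AQP1 (2.21), the proximal tubule water channel, were called (median -0.32). The AQP1 call remained in 1 of the 7 fits without a library, and its exons share 26.5% of their bases with another gene.

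The 7-mers shown at the start describe how the differences were spread over 3′ UTRs. A 3′ UTR of 50 bases or more was found for 10027 of the tested genes. UTR length and GC content were regressed out before the mean differences of words were compared. The shares of genes that held a word and the calls by number of matches were not adjusted for length or GC content. Genes of even-numbered chromosomes with TGAGATA (575 genes) had a mean log2 difference that was 0.22 above that of genes without it, which is the value the word was picked for. On odd-numbered chromosomes and X, which took no part in the choice, the value was 0.21 (708 genes), which ranked at 2 among 14061 words held by 100 or more genes. For CAGTTAC the values were -0.18 (529 genes) and -0.12 (575 genes), which ranked at 69. On the chromosomes not used for the choice, TGAGATA was in 33.8% of genes called higher in si2, 13.0% of those called lower and 11.6% of those not called. CAGTTAC was in 10.2%, 17.4% and 9.93%. Over all genes with a 3′ UTR, 12.8% held TGAGATA and 11.0% held CAGTTAC.

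Calls were also counted by the number of matches, on the odd-numbered chromosomes and X alone. Of genes with 0, 1 and 2 or more TGAGATA matches, 3.01%, 10.5% and 11.8% were called higher in si2, while 2.83%, 2.93% and 3.15% were called lower. For CAGTTAC, 2.62%, 3.57% and 14.1% were called lower in si2, and 3.97%, 3.97% and 4.23% higher, where the last group held 71 genes, 10 of them called lower. Set against the control, genes with 2 or more TGAGATA matches had a median log2 level of -0.24 in si1 and 0.04 in si2, and those with 0 had -0.01 and -0.02. Genes with 2 or more CAGTTAC matches had 0.02 in si1 and -0.10 in si2. Both siRNAs were set against the same 4 control libraries here. Without siSCR replicate 1 the values were -0.21 and 0.04 for TGAGATA and 0.05 and -0.08 for CAGTTAC. Of the 15 genes highest in si1, RYBP held both words, and TGAGATA was in no other.

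**Figure D5:**
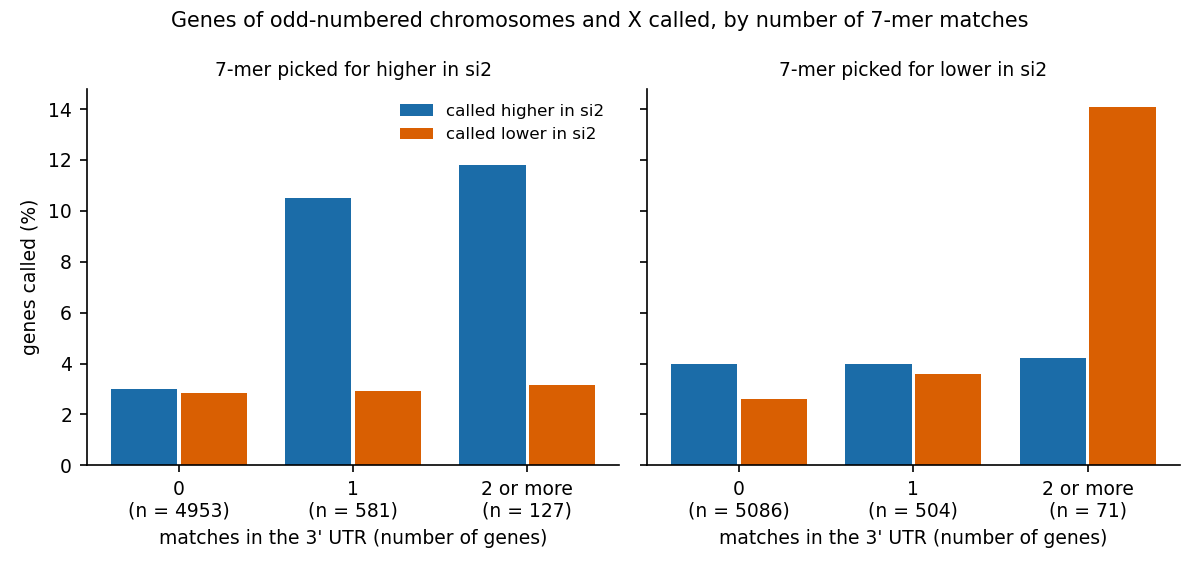
Percent of genes of odd-numbered chromosomes and X, which were not used to pick the words, called higher (blue) and lower (orange) in si2, by the number of matches in the 3′ UTR, for the 7-mer picked for higher levels in si2 (left, TGAGATA) and the one picked for lower levels (right, CAGTTAC). On the left the blue bars are at 3.01%, 10.5% and 11.8% and the orange ones between 2.83% and 3.15%. On the right the orange bars are at 2.62%, 3.57% and 14.1%. The percentages were not adjusted for UTR length or GC content.

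The choice of word was not stable under every rule. Picked by the same rule on odd-numbered chromosomes and X, the top word for higher levels in si2 was TTATCGT, at -0.03 on the even-numbered ones, and for lower levels TTCGGCT, at 0.01. When words were ranked by the difference divided by its standard error, a rule added after the data were seen, both TGAGATA and CAGTTAC were again picked on the even-numbered chromosomes, and CTGAGAT and GTTACAT on the others, with 0.15 and -0.08 on the chromosomes not used. Genes called higher in si2 had longer and more AT-rich 3′ UTRs (median length 1928 bases and 39.5% GC) than those not called (1430.5 bases and 42.3% GC). The reverse complement of neither word was the seed of any of 2545 mature human microRNAs in the RefSeq-derived table. Whether these words pair with either siRNA was not tested.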

How the data were processed

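RNA-seq of 11 libraries was used: 3 of si1, 4 of si2 and 4 of siSCR. The authors deposited, per the file headers, 1 table per siRNA with the log2 of (normalized count + 1) of each library, the mean normalized count (a signal over the libraries of the table), log2 fold changes and p-values against the control. The authors scaled the values by size factors, and the control columns of the tables were identical. The submitters' processing notes list cutadapt, FastQC, STAR, HTSeq and the authors' DESeq2 with GRCh38; no source used here gives versions or the strand setting, so reads of overlapping and antisense genes cannot be told apart. Columns were joined on Ensembl identifiers. In every library all values above 0 came out as whole multiples of 1 read (tolerance 0.01), which gave the depth. It was 2108546 to 5939514 reads in the siRNA libraries, and their number limits the precision.

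The si2 libraries were compared with the si1 libraries by limma 3.58.1 (R 4.3.3), with Benjamini-Hochberg adjustment over 10448 genes with a normalized count of at least 10 in 3 or more of 7 libraries. A difference is si2 minus si1 on the log2(count + 1) scale, which understates changes of low genes. Single values were tested by an exact permutation test, two-sided. Named were AKR1A1, the 15 genes of largest size in each direction among called genes without overlap and with a higher group mean of 100 counts or more, the called and most abundant members of each list, and genes with the same or opposite signs in the authors' deposited tables. Members and lists were chosen with earlier results of these data known. The 31 lists are those of the report and of the other observations. Genes outside this rule, such as those given in parentheses for the S phase and p53 lists, were chosen after their values were seen. Alternatives covered the filter, pseudocount, scaling, variance model, covariates, count test (voom on recovered reads), replicates and the choice of 7-mers, of which those on standardized ranking, on siSCR replicate 1 and on further fits of AKR1A1 were added after the data were seen. Fewer cells and less RNA per cell cannot be told apart in bulk RNA. Results for a few genes are not reported here.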

Additional observations from a re-analysis of the deposited data

Results flagged for a closer look

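In 13 of 136 values examined, 1 si2 library lay far from the other 3, with a gap above Dixon's 95% critical value for 4 samples. Chance alone marks about 1 in 20 groups. In 8 of them si2 replicate 3 was the library apart. TFRC was at 916 there against 489.6 to 555 in the others, PLXNA1 at 132 against 94.9 to 99.9, PIR at 105 against 57.5 to 65.3, SCD at 1115 against 809 to 846 and CA12 at 92.4 against 61.7 to 66.3. HMGB2, at 108 against 127 to 130.0, and CD68, at 33.6 against 81.1 to 85.8, were lower there, and with CD68 the leukocyte score, at -0.99 against 0.25 to 0.33. In si2 replicate 4, ALDH1A1 was at 108 against 126 to 128, AKR1C1 at 48.2 against 32.6 to 33.7 and the NRF2 score at 0.0885 against 0.01 to 0.02. TRIM55 was at 45.1 in si2 replicate 1 against 18.9 to 22.3, and H2BC5 at 28.1 in si2 replicate 2 against 14.7 to 15.9.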

How the results depend on the processing

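Against 704 calls, limma gave 230 with no filter on low values (143 higher in si2 and 87 lower), 1064 with a trended variance, 1641 with array weights, 1172 with voom on recovered reads and 167 when the mitochondrial share was a covariate. Leaving 1 library out gave 120 to 803, the lowest without si2 replicate 4 and the highest without si1 replicate 2. Leaving replicate 1 of both siRNAs out gave 19. A fit of all 11 libraries, the control included, gave 790, with 558 of them among the 704. In that fit 15 of the 85 called genes named no longer passed. With a replicate block on replicates 1 to 3, which also drops si2 replicate 4, 6 genes were called. Same-numbered libraries deviated from their group means with correlations of 0.12, -0.02 and 0.05, so the numbers were not taken to pair the samples. Of the 85 called genes named, 85 stayed called under upper-quartile rescaling, array weights, a pseudocount of 5 and robust moderation, and 0 changed sign in any fit. The called genes that no longer passed numbered 44 without the filter, 62 with the mitochondrial covariate, 6 to 48 without 1 library, 78 without replicate 1 of both siRNAs and 83 with the replicate block, where 0 passed. The AKR1A1 difference was -0.0064 under upper-quartile rescaling, -0.13 with array weights, -0.10 with voom, 1.27 with the mitochondrial covariate and -0.43 to 0.45 without 1 library. The mitochondrial share difference was -4.55 to -2.30 points. Among named genes, signs turned only in those not called. With the mitochondrial covariate COX4I1 was 0.24, RPL27A 0.44, RPS27A 0.47, CARNMT1 0.29 and HMGB2 -0.67. Without replicate 1 of both siRNAs COX4I1 was 0.016, RPS27A 0.17, CARNMT1 0.12 and HMGB2 -0.077. CARNMT1 was 0.17 with array weights and KCNIP1 -0.00127 with the replicate block. Without 1 library COX4I1 ranged from -0.19 to 0.031, RPS27A from -0.19 to 0.18, INSIG1 from -0.12 to 0.10, KCNIP1 from -0.20 to 0.40, CARNMT1 from -0.20 to 0.14 and HMGB2 from -0.050 to 0.72. The word picked for higher levels in si2 gave -0.027 (TTATCGT) when picked on odd-numbered chromosomes and X and 0.15 (CTGAGAT) there by standardized rank. The word for lower levels gave 0.00905 (TTCGGCT) and -0.080 (GTTACAT) in the same way, and -0.00387 (GAGGCGC) with no regression on length and GC content. The cause was not tested for any of these changes. Depth limits the genes near 10 counts, where 1 read is 0.52 to 1.5 normalized counts.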

Other observations

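Genes of iron handling, of the small RNA machinery and of chromatin were examined beside those of the report. Calls were by limma at an adjusted p under 0.05. Over all genes tested 3.71% were called higher in si2 and 3.02% lower, and the median difference was 0.03. Of 19 iron genes, TFRC was higher in si2 and 2 were lower, the mitochondrial iron importer SLC25A37 (-1.08) and the ferritin light chain FTL (-0.82), with a median of -0.17. Of 19 genes of the small RNA machinery 0 were higher and 2 were lower in si2, with a median of 0.03. AGO3, an Argonaute protein, had 184, 171 and 155 counts in si1 and 79.8 to 99.9 in si2 (difference -0.91; limma adjusted p = 0.0265). TNRC6A, the partner through which Argonaute silences transcripts, had 721 to 828 in si1 and 346 to 478 in si2 (difference -0.89; limma adjusted p = 0.0302). Neither gene overlapped between the siRNAs, and each call remained in 1 of the 7 fits without a library. Of 16 histone genes 2 were lower in si2, H2AC6, with 84.3 to 119 in si1 and 26.5 to 34.2 in si2 (difference -1.63; limma adjusted p = 0.00708), and H2BC5 (-1.43), while the median was 0.20.

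Of 34 genes of lysosome and autophagy, BECN1 was higher and OSTM1 (-0.86), a lysosomal membrane protein, was lower in si2, with a median of 0.02. Of 33 MYC targets and ribosome biogenesis genes 0 were higher and 2 were lower, RPS19BP1 and WDR74 (-0.79), with a median of -0.18. Of 23 genes of the BCL2 family and caspases PMAIP1 was lower, with a median of 0.38. Of 16 amino acid transporters SLC7A11 was higher, with a median of 0.20. Of 21 integrins and ephrin receptors ITGB8 (1.28) and ITGAV (0.95) were higher, with a median of 0.25. Of all genes tested 6.74% were called in either direction. The shares were 5.88% for lysosome, 6.06% for MYC, 4.35% for BCL2, 6.25% for transporters and 9.52% for integrins. Of the markers of other cell types, COL1A1 was the 1 fibroblast gene tested and was higher in si2 (1.38), CD68 was the 1 leukocyte gene tested and was not called (0.38), and 0 endothelial genes passed the filter.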
